A study of Mus musculus with 2 samples.

Results

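The proteasome genes were taken as the probe sets with 1 gene symbol that starts with Psm, a letter from a to g and a number. The rule found 49 genes on 103 probe sets, of 18193 genes with such a symbol and 45101 probe sets in all. Each probe set combines several short probes for 1 stretch of a transcript. Of the 49 genes, 47 lay above the level filter, an intensity of about 52.4, which is the median of all probe sets that are not array controls. Psmc3ip, a recombination factor of meiosis, and Psme3ip1, which binds the activator encoded by Psme3, fit the symbol rule but are not proteasome subunits. The probe set of the activator subunit Psme2 is shared with its copy Psme2b, so 4 of the 5 immunoproteasome genes named by the rule could be read: Psmb8, Psmb9, Psmb10 and Psme1.

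The samples were C2C12 cells, a mouse myoblast line that forms myotubes when serum is lowered, that carried the hairpin shLrrfip1a against Lrrfip1 (1 array), and C2C12 cells that carried the control hairpin shLCUI, spelled shLUCI in the series' design text (1 array). Lrrfip1 encodes a nucleic acid-binding protein. Both groups were grown with 10% fetal bovine serum and read after 5 days in 2% horse serum. How the hairpins were delivered, and whether cells were cloned or pooled, is not given in the sources used here. Each group had 1 array, so the spread between cultures is unknown and no value below carries a p-value or an SD over cultures.

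The proteasome is the protease of the cytosol and nucleus that degrades proteins tagged with ubiquitin. Its barrel, the 20S core, has outer rings of alpha subunits (Psma genes) and inner rings of beta subunits (Psmb genes), and 19S caps (Psmc and Psmd genes) bind ubiquitin chains, unfold the substrate and feed it into the barrel. Interferon-gamma induces Psmb8, Psmb9 and Psmb10, which take the places of the catalytic subunits Psmb5, Psmb6 and Psmb7 and give the immunoproteasome, whose peptides are loaded on MHC class I molecules. In differentiating muscle the proteasome turns over regulatory and myofibrillar proteins.

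Lrrfip1 itself had intensities of 375, 292 and 108 on its 3 probe sets in shLrrfip1a cells, against 531, 469 and 160 in control cells, so that 62.2% to 70.6% of the control signal was left. All 6 myotube markers (Myog, Ckm, Acta1, Myh3, Tnnt3 and Des) lay above the filter. Their differences went both ways, from -0.38 for Myog (2005 against 2612 in control) to 0.38 for Ckm (422 against 321 in control). Of 7 measured leukocyte markers, 2 lay above the filter, Cd74 (263 against 127 in control) and Lyz2 (107 against 28.1 in control). The defining leukocyte genes Ptprc, Cd3e and Itgam lay below it on both arrays, as did all 3 dendritic and endothelial markers. The 7 leukocyte markers summed to 506 in shLrrfip1a cells and 289 in control cells, and their part in the results below was not tested. In RNA of a whole culture, fewer cells of a type and less RNA per cell cannot be told apart.

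The catalytic subunits of the immunoproteasome differed between the arrays in both directions, while their constitutive counterparts stayed nearly level. Psmb8 read 344 in shLrrfip1a cells and 594 in control cells, a log2 difference of -0.76. Differences here and below are on the scale of log2(intensity + 16), shLrrfip1a minus control. Psmb8 was thus at 57.9% of the control intensity, and 98.5% of the 11448 genes above the filter had a higher difference. Its other probe set was dim on both arrays, at 17.4 in shLrrfip1a cells and 28.0 in control cells (-0.40), and pointed the same way.

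Psmb9 read 303 in shLrrfip1a cells and 436 in control cells (-0.50), with 3.69% of all genes lower. Psmb10 was the member with the largest positive difference, at 393 in shLrrfip1a cells and 283 in control cells (0.45), with 4.61% of all genes higher. Psmb8 and Psmb9 were therefore lower in shLrrfip1a cells than in control cells, and Psmb10, the third catalytic subunit of the same complex, was higher. Psme1, a subunit of the 11S ring that interferon-gamma also induces and that opens the barrel, read 705 in shLrrfip1a cells and 619 in control cells (0.18). The probe set shared by Psme2 and Psme2b read 924 in shLrrfip1a cells and 979 in control cells (-0.08), and which of these genes gave the signal is not resolved by it.

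The subunits that the immunoproteasome forms replace showed small differences. Psmb5, the chymotrypsin-like subunit that gives way to Psmb8, read 1322 in shLrrfip1a cells and 1249 in control cells (0.08). Psmb6, the caspase-like subunit that gives way to Psmb9, read 1088 in shLrrfip1a cells and 1129 in control cells (-0.05). Psmb7, the trypsin-like subunit that gives way to Psmb10, read 445 in shLrrfip1a cells and 411 in control cells (0.11). Set against its own counterpart, the difference was -0.84 for Psmb8 minus Psmb5, -0.45 for Psmb9 minus Psmb6 and 0.34 for Psmb10 minus Psmb7. A uniform shift of all log2 values of an array leaves these 3 contrasts as they are.

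**Figure D1:**
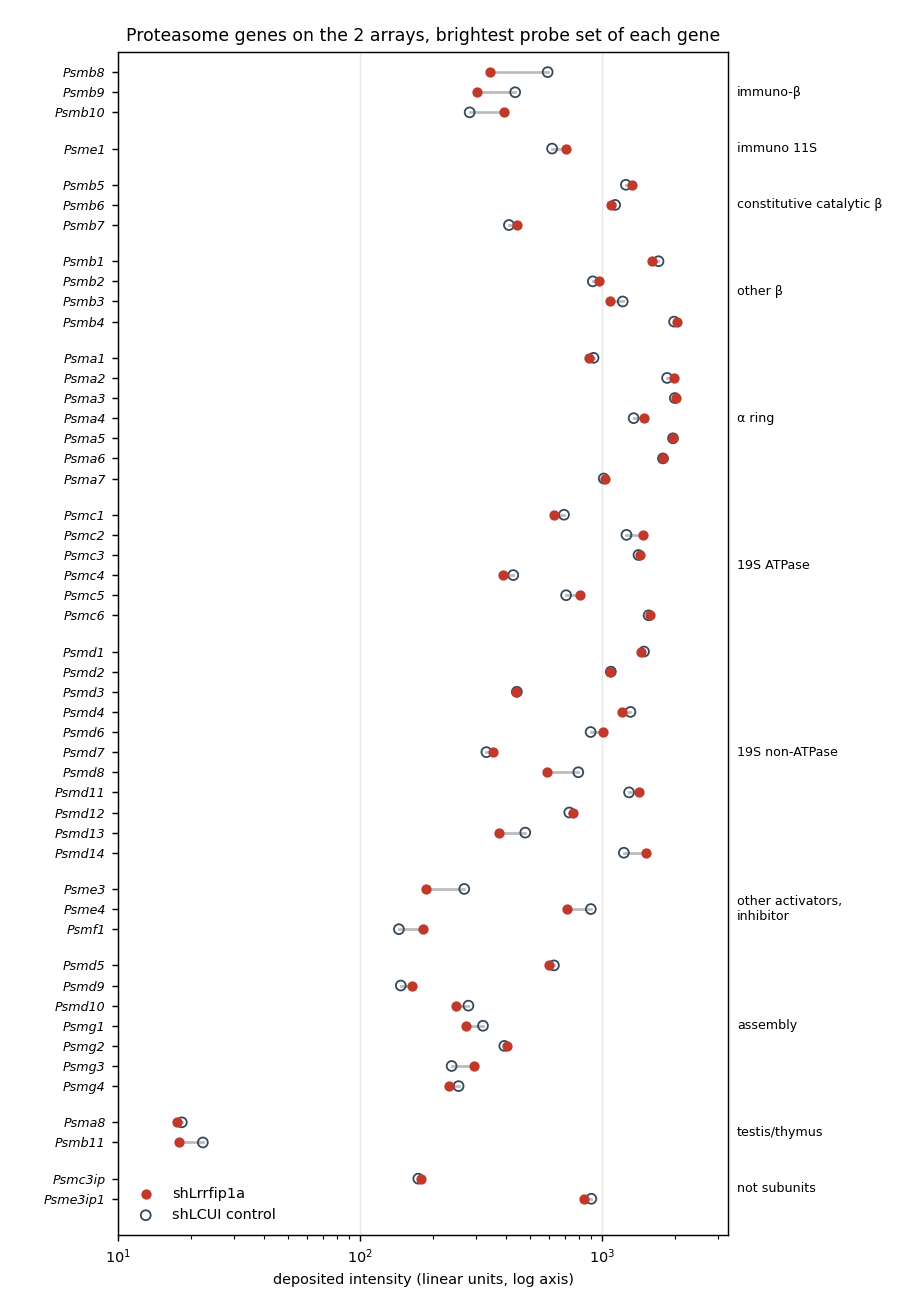
Deposited intensity (linear units on a log axis) of the brightest probe set of each of the 49 genes, 1 row a gene, grouped by role. Filled red points are the shLrrfip1a array and open points the shLCUI control array. The points lie close together in most rows, and are widest apart for Psmb8 (344 against 594 in control). Levels of different genes are not comparable, since each probe set binds with its own strength.

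Over the 4 measured immunoproteasome genes the median difference was -0.16, against 0.01 over the 43 other members above the filter, a contrast of -0.17. That contrast rests on Psmb8: without it the immunoproteasome median was 0.18 and the contrast 0.17. With all 4 genes, scaling the arrays to the spike-in controls described below gave medians of -0.01 and 0.16, with the contrast still -0.17. Adding the probe set shared by Psme2 and Psme2b, on the authors' scaling, gave an immunoproteasome median of -0.08. The 4 genes had 2 differences on each side of 0, and an SD over genes of 0.57. A median over genes that differ in opposite directions describes none of them.

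Of the 47 proteasome genes, 0 were at least 2-fold higher, where 0.664% of all genes were, and 0 were at least 2-fold lower, where 0.69% of all genes were. At 1.5-fold, 0 members were higher (2.34% of all genes) and 1 was lower, Psmb8 (2.46% of all genes). At 1.3-fold, a size added after the data were seen, 1 member was higher, Psmb10 (6.82% of all genes), and 4 were lower, namely Psmb8, Psmb9, Psme3 and Psmd8 (7.01% of all genes). Counts this close to the background do not set the proteasome genes apart as a whole. The split depends on the scaling. The 45 bacterial and phage spike-in control probe sets had a median difference of -0.15, and scaling the arrays to them raised every difference by the size of that median and gave 4 members higher (Psmb10, Psmd14, Psmf1 and Psmg3) and 1 lower (Psmb8) at 1.3-fold, and 1 higher (Psmb10, 0.60) and 1 lower (Psmb8) at 1.5-fold. With that scaling 19.99% of all genes passed 1.3-fold and 6.82% passed 1.5-fold in either direction, so the members' counts stayed at or below the background.

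**Figure D2:**
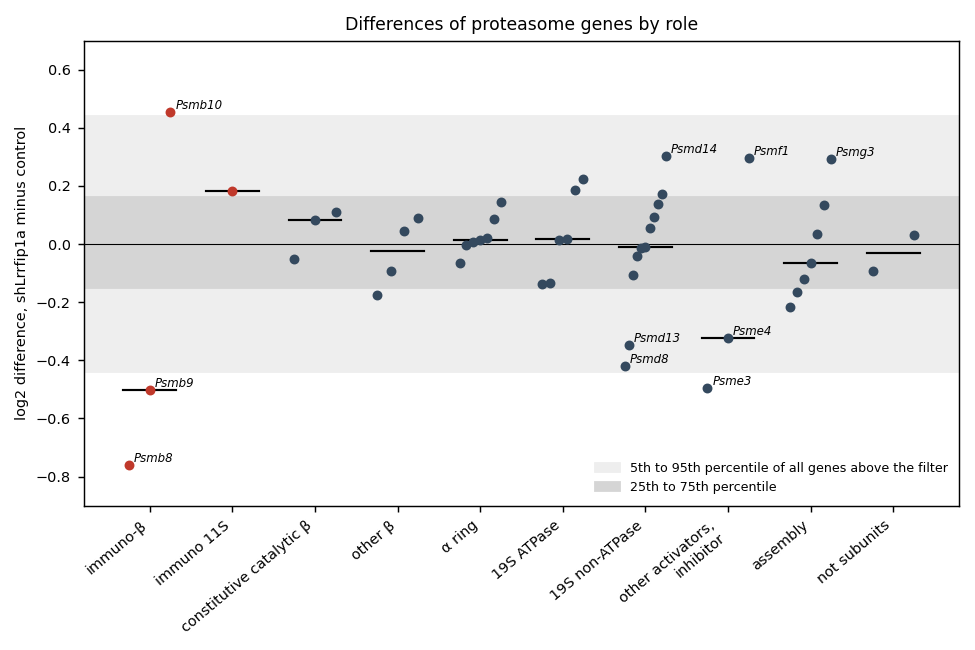
Log2 difference (shLrrfip1a minus control) of the 47 members above the filter by role, with red points for the immunoproteasome genes, dark points for the others and a black line at each median. Grey bands span the 25th to 75th and the 5th to 95th percentile of all 11448 genes (-0.44 to 0.44 for the wider one). Psmb8, Psmb9, Psmb10 and Psme3 lie outside the wider band.

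Psmb8 and Psmb9 are neighbours in the MHC region of chromosome 17, in the gene order Psmb9, Tap1, Psmb8, Tap2 in RefSeq's annotation of mouse assembly GRCm38.p6. Tap1 and Tap2, the subunits of the transporter that carries proteasome peptides into the endoplasmic reticulum, had smaller differences than Psmb8 and Psmb9. Tap1 read 212 in shLrrfip1a cells and 232 in control cells (-0.12), and Tap2 read 275 in shLrrfip1a cells and 287 in control cells (-0.06). Psmb10 lies apart from them on chromosome 8, between Ctrl, which lay below the filter (0.20), and Lcat. Lcat was dim and near the filter (57.9 in shLrrfip1a cells and 49.9 in control cells, 0.17). The next genes on either side, Slc12a4 and Pskh1, lay above the filter and differed by 0.08 and 0.05.

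The promoters of the immunoproteasome catalytic subunits are shown because these 3 genes differed in opposite directions, and those of the subunits they replace are set beside them. RefSeq sequences of build GRCm38.p6, from 250 bases before to 50 bases after the gene start, were matched by symbol for 41 of the 49 genes, and Psmb7 was among the 8 that were not matched. Psmb8 lies at chr17:34197945-34198244, plus strand, Psmb5 at chr14:54617946-54618245, minus strand, Psmb9 at chr17:34187281-34187580, minus strand, Psmb6 at chr11:70525107-70525406, plus strand and Psmb10 at chr8:105938343-105938642, minus strand. The capitals mark matches to any of 3 motifs searched on both strands, named in the text after the sequences.
Psmb8: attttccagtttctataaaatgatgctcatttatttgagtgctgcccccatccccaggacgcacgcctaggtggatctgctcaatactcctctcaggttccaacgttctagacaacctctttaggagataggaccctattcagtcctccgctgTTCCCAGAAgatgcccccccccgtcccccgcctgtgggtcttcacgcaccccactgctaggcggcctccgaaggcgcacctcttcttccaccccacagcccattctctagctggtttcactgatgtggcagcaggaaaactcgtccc
Psmb5: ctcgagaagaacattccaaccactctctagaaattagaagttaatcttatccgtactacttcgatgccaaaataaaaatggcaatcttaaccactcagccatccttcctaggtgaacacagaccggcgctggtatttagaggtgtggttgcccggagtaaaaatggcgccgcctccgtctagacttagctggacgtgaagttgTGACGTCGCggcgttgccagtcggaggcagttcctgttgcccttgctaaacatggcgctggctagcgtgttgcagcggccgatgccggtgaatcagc
Psmb9: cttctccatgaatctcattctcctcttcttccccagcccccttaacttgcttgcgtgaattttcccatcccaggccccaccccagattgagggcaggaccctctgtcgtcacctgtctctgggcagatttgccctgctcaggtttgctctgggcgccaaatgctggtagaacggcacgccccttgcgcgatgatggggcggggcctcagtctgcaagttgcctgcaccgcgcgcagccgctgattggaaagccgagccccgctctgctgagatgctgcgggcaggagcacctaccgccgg
Psmb6: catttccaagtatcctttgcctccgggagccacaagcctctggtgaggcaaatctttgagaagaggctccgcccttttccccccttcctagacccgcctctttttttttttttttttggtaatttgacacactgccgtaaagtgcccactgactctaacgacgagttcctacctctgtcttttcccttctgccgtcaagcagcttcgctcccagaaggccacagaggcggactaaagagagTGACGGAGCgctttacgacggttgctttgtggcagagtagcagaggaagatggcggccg
Psmb10: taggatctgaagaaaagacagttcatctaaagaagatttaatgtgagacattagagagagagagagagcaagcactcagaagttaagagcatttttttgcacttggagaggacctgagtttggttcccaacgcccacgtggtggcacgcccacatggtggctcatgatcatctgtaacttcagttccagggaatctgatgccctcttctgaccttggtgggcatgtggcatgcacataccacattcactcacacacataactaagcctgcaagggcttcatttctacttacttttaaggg

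The interferon-gamma activated site, TTCNNNGAA, which reads the same on both strands, was found in the Psmb8 promoter as TTCCCAGAA, 97 bases before the gene start. It was present in 3 of 41 member promoters (Psmb8, Psmd2 and Psmg1), or 7.32%, and in 9.55% of all 27025 genes with a promoter of that length. The core of the interferon-stimulated response element was found in 5 of 41 members (12.2%) and in 3.99% of all genes. These members were Psmb3, Psmd4, Psmd9, Psme1 and Psmg4, of which Psme1 alone is an immunoproteasome gene. The core of the antioxidant response element, TGACNNNGC, the site of Nfe2l1 and Nfe2l2, was found in the Psmb5 promoter as TGACGTCGC and in the Psmb6 promoter as TGACGGAGC. It was present in 6 of 41 members (14.6%) and in 14.0% of all genes. None of the 3 motifs was found in these windows of Psmb9 and Psmb10. A match is a string of letters, not a measured binding site.

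The 31 subunits of the 20S core and the 19S cap, the immunoproteasome forms left out, were close to level on both arrays. Their median difference was 0.01 and their SD over genes 0.15, against an SD of 0.30 over the 3565 genes at least as bright as the dimmest of them and 0.32 over all 11448 genes. Of the 31, 30 stayed within 1.3-fold (96.8%), against 85.7% of the 3565 genes, and Psmd8 was the exception. Differences below 0 were found in 13 of the 31. Over all 43 members outside the immunoproteasome that share was 46.5%, against 49.3% of all genes.

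The 7 alpha subunits, which form the outer rings and the gate of the barrel, had the narrowest spread, with an SD over genes of 0.07. The lowest was Psma1, at 877 in shLrrfip1a cells and 919 in control cells (-0.07), and the highest Psma4, at 1489 in shLrrfip1a cells and 1345 in control cells (0.15). On its dimmer probe sets above the filter Psma1 pointed the other way (0.19 and 0.09). Psma5 read 1964 in shLrrfip1a cells and 1956 in control cells (0.01), and Psma3 read 2009 in shLrrfip1a cells and 1990 in control cells (0.01). Psma2, Psma6 and Psma7 differed by 0.09, -0.00 and 0.02. The arrays thus gave nearly the same reading of each alpha subunit on its brightest probe set.

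The 4 beta subunits without catalytic activity ranged from -0.18 to 0.09. Psmb3 was the lowest, at 1071 in shLrrfip1a cells and 1212 in control cells (-0.18, and -0.13 on its other probe set). Psmb2 was the highest, at 972 in shLrrfip1a cells and 912 in control cells (0.09). Psmb4 read 2038 in shLrrfip1a cells and 1976 in control cells (0.04), and Psmb1 read 1595 in shLrrfip1a cells and 1704 in control cells (-0.09, with 0.25 and 0.18 on its dimmer probe sets). The direction of Psmb1 therefore depends on the probe set read.

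The 6 ATPases that form the motor ring of the cap had a median of 0.02. Psmc2 was the highest, at 1470 in shLrrfip1a cells and 1256 in control cells (0.22, and 0.15 on a second, dimmer probe set). Psmc5 read 808 in shLrrfip1a cells and 708 in control cells (0.19). Psmc1 was the lowest, at 629 in shLrrfip1a cells and 693 in control cells (-0.14). Psmc4 followed at -0.14, but differed by 0.02 on its other probe set. Psmc3 and Psmc6 differed by 0.02 and 0.01. None of the 6 ATPase genes reached 1.3-fold.

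Among the 11 non-ATPase subunits of the cap, Psmd8 and Psmd13 were the lowest and Psmd14 the highest. Psmd8, a lid subunit, read 590 in shLrrfip1a cells and 795 in control cells (-0.42) on its 1 probe set. Psmd13, another lid subunit, read 373 in shLrrfip1a cells and 480 in control cells (-0.35). Its second probe set above the filter differed by -0.12, and a dim one pointed the other way, at 54.6 in shLrrfip1a cells and 34.8 in control cells (0.48). Psmd14, the deubiquitinase that cuts ubiquitin chains off the substrate, read 1518 in shLrrfip1a cells and 1226 in control cells (0.30). The other 8 lay between -0.11 and 0.17, among them the ubiquitin receptor Psmd4 (-0.11), the scaffold subunits Psmd1 (-0.04) and Psmd2 (-0.01), and the lid subunits Psmd6 (0.17) and Psmd11 (0.14). Psmd11, whose brightest probe set read 1418 in shLrrfip1a cells and 1288 in control cells, ranged from -0.11 to 0.14 over 6 probe sets. Psmd3, Psmd7 and Psmd12 differed by -0.01, 0.09 and 0.05.

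The activators that work outside the immunoproteasome were lower in shLrrfip1a cells on their brightest probe sets. Psme3, which forms the nuclear 11S ring, read 186 in shLrrfip1a cells and 269 in control cells (-0.50). Its second probe set above the filter was level, at 89.8 in shLrrfip1a cells and 92.5 in control cells (-0.04). Psme4, which encodes the large nuclear activator PA200, read 712 in shLrrfip1a cells and 895 in control cells (-0.32), and each of its 4 probe sets above the filter was lower, with differences from -0.32 to -0.08. Its dim probe sets below the filter pointed the other way (0.11 and 0.04), and the mean over all of its probe sets was -0.13. Psmf1, an inhibitor of the 20S core, read 181 in shLrrfip1a cells and 144 in control cells (0.30) on its brightest probe set, with 0.20 and -0.19 on the others above the filter.

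**Figure D3:**
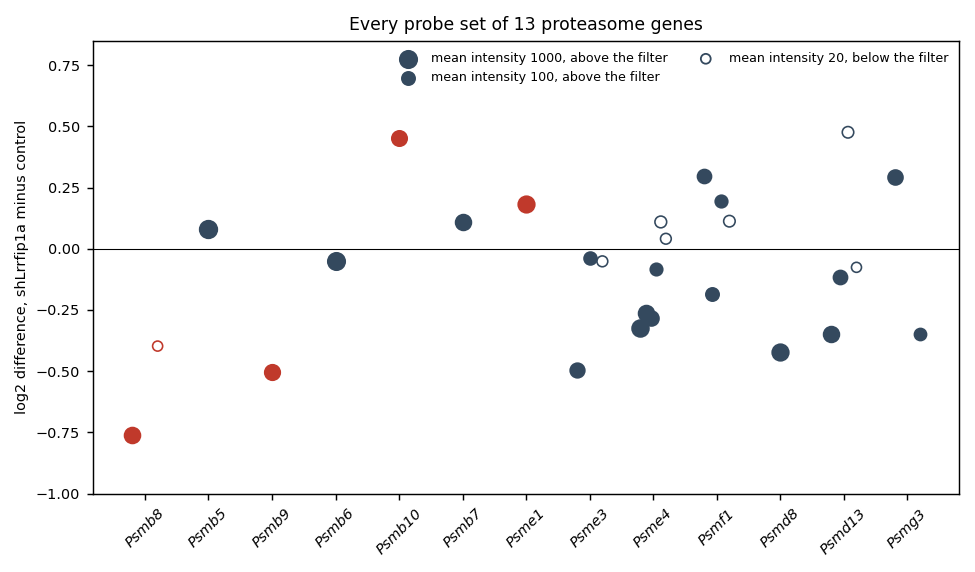
Log2 difference (shLrrfip1a minus control) of every probe set of 13 proteasome genes, with red for immunoproteasome genes, dark for the others, filled symbols above the level filter and larger symbols for brighter probe sets. Psme4 is below 0 on all 4 of its filled symbols, whereas Psmf1 and Psmg3 have filled symbols on both sides of 0.

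The 7 assembly chaperones, which guide the rings and the base of the cap together, had a median of -0.06. Psmg1, which pairs with Psmg2 to build the alpha ring, was the lowest, at 274 in shLrrfip1a cells and 321 in control cells (-0.22), while Psmg2 read 403 in shLrrfip1a cells and 393 in control cells (0.04). Psmg3, which pairs with Psmg4, was the highest, at 295 in shLrrfip1a cells and 238 in control cells (0.29), but its dimmer probe set differed by -0.35. Psmg4 differed by -0.12, and the chaperones of the cap base Psmd5, Psmd9 and Psmd10 by -0.06, 0.13 and -0.16. The germ cell subunit Psma8 (17.5 in shLrrfip1a cells and 18.3 in control cells) and the thymus subunit Psmb11 (17.7 in shLrrfip1a cells and 22.4 in control cells) lay below the filter on both arrays. Psmc3ip (0.03) and Psme3ip1 (-0.09), which are not subunits, were close to level.

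Probe sets of 1 gene show how far readings under 1 symbol differ within these arrays. They read the same RNA, can cover different stretches of a transcript, and are not replicates. Of the 49 genes, 22 had several probe sets above the filter. The range of their differences had a median of 0.10, against 0.18 for all 4853 such genes, which were not matched for brightness. With no level filter the members' median range was 0.16. The widest ranges among members were those of Psmg3 (0.64), Psmf1 (0.48) and Psme3 (0.46). Psmb9, Psmb10, Psme1, Psmd8 and Psmd14 have 1 probe set each, so their differences have no such check.

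Genes that act with the proteasome but carry other symbols were read from 5 lists. Of 9 measured proteasome partners and subunits outside the symbol rule, 0 passed 1.5-fold, where 4.8% of all genes did in either direction, and the median difference was 0.08, against 0.00 over all genes. The deubiquitinase Usp14 read 586 in shLrrfip1a cells and 420 in control cells (0.47), but -0.00 to 0.09 on its 3 other probe sets. Ecpas differed by 0.21 on its brightest probe set, but by -0.15 on a dimmer one that also passed the filter. The mean over all Ecpas probe sets was 0.07. The deubiquitinase Uchl5 differed by -0.18. The assembly factor Pomp read 1400 in shLrrfip1a cells and 1283 in control cells (0.12), and the small cap subunit Sem1 differed by 0.08.

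Of 9 measured regulators of proteasome genes, 7 were below 0, where 49.3% of all genes were. The small Maf protein gene Maff was the 1 regulator past 1.5-fold, where 4.8% of all genes were in either direction. The list median was -0.16, but -0.00 with spike-in scaling. Maff was dim, at 67.9 in shLrrfip1a cells and 118 in control cells (-0.68). Stat3 read 326 in shLrrfip1a cells and 492 in control cells (-0.57), and each of its 3 probe sets above the filter was lower, with differences from -0.57 to -0.29. Its remaining probe set, below the filter, pointed the other way, at 50.05 in shLrrfip1a cells and 37.77 in control cells (0.30), and the mean over all 4 was -0.25. Mafg, a partner of the Nfe2l factors on DNA, read 265 in shLrrfip1a cells and 378 in control cells (-0.49), but -0.03 on its other probe set. Nfe2l1, the factor that raises proteasome genes when the proteasome is inhibited, read 939 in shLrrfip1a cells and 1046 in control cells (-0.15), and Nfe2l2 differed by 0.09.

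Of 13 ubiquitin and p97 pathway genes, 0 passed 1.5-fold, where 4.8% of all genes did, and the median was 0.07. The ubiquitin-conjugating Ube2n read 489 in shLrrfip1a cells and 365 in control cells (0.41, and 0.29 on its other probe set), the activating enzyme Uba6 read 338 in shLrrfip1a cells and 414 in control cells (-0.28), and Vcp, the p97 unfoldase, read 2250 in shLrrfip1a cells and 1860 in control cells (0.27). All 3 genes pointed the same way on both of their probe sets above the filter.

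In the MHC class I list, which holds the genes that take up proteasome peptides, 0 of 13 passed 1.5-fold, where 4.8% of all genes did. The list median was -0.06. Nlrc5, the transactivator of MHC class I genes that also acts on Psmb9 and Tap1, read 115 in shLrrfip1a cells and 166 in control cells (-0.48). H2-K1 read 1031 in shLrrfip1a cells and 1414 in control cells (-0.45), although its probe sets can bind related class I genes and ranged from -0.45 to 0.02. Tapbpl, a peptide editor, read 80.4 in shLrrfip1a cells and 52.4 in control cells (0.49), so its control value lay at the level filter. Its other probe set was below the filter, at 15.2 in shLrrfip1a cells and 12.6 in control cells (0.13). B2m, the light chain of class I molecules, read 6848 in shLrrfip1a cells and 6695 in control cells (0.03).

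Of 14 interferon signalling genes above the filter, 0 passed 1.5-fold, where 4.8% of all genes did, and the median was 0.01. Irf9 read 356 in shLrrfip1a cells and 261 in control cells (0.43), Jak2 differed by 0.30 and Tyk2 by -0.20. Irf1, a factor that induces the immunoproteasome genes, read 513 in shLrrfip1a cells and 532 in control cells (-0.05), and the receptor subunits Ifngr1 and Ifngr2 differed by 0.10 and 0.11. The members of the interferon signalling list lay on both sides of 0, and their part in the lower Psmb8 and Psmb9 readings was not tested.

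**Figure D4:**
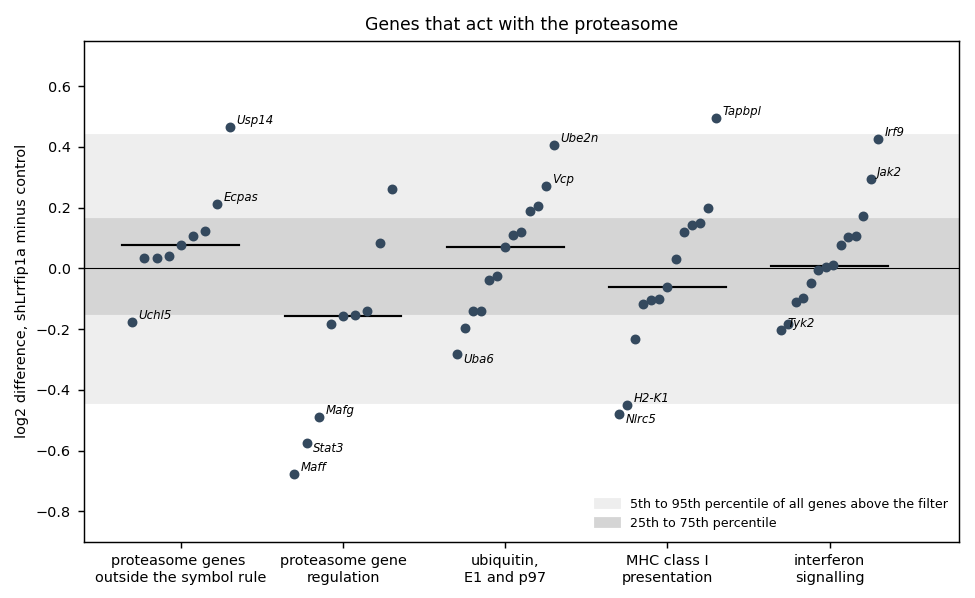
Log2 difference (shLrrfip1a minus control) of the genes above the filter in 5 lists of genes that act with the proteasome, with a black line at each list's median and the 3 largest differences of each list named. Grey bands span the 25th to 75th and the 5th to 95th percentile of all 11448 genes. Maff (-0.68) and Stat3 (-0.57) are the lowest points.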

How the data were processed

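The authors deposited linear intensity values, 1 for each array and probe set. Per the labels' protocols, biotin-labelled cRNA was made from 6 ug of total RNA by the Affymetrix procedure. How probes were summarised, corrected for background and scaled is not stated in the labels, and with no detection calls a dim gene cannot be called absent. The number of arrays limits the precision.

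Genes were named through the platform annotation, and all 49 proteasome symbols matched the mouse gene table of GRCm38.p6 by gene identifier. Values were taken as log2(intensity + 16), shLrrfip1a minus control, with numpy 2.4.6, pandas 2.3.3 and statsmodels 0.14.6 under Python 3.11.15. Adding 16 makes differences of dim genes smaller. A gene was read from its probe set with the highest mean log2 level and kept when that level lay above the median of the probe sets that are not controls. No test was possible with 1 array a group, and sizes of 2-fold, 1.5-fold and 1.3-fold were used to count genes. The calculation was tested on simulated data.

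The members, the gene lists and the rule for named genes were chosen with earlier results of these data known. The rule names the immunoproteasome genes and their counterparts, the highest and lowest gene of each role, every member past 1.5-fold and the 3 largest differences of each further list, and other members are given by their values. The 1.3-fold size, the brightness-matched background and 2 alternatives on the immunoproteasome list were added after the data were seen. Alternatives were tried for scaling, pseudocount, filter and the choice among probe sets. Proteins were not analysed here.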

Additional observations from a re-analysis of the deposited data

How the results depend on the processing

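With 1 array a group no array could be left out. No paired analysis was possible because shLrrfip1a and control are single arrays. An alternative value was taken as moved when it differed by more than 0.17, the pooled SD of the differences between probe sets of 1 gene, for a share by more than 10 percentage points, and for a count by more than 1.5 times. Of 85 alternative values of the counts, medians and shares, 78 had not moved. Some of these could not have moved. Spike-in scaling shifted each median by 0.15, less than the limit of 0.17. With it the immunoproteasome median went from -0.16 to -0.01, and that of the other members from 0.01 to 0.16. A uniform shift also leaves the contrast between these medians as it is. Scaling to the spike-in controls made 1 gene at least 1.5-fold higher, in place of 0, and moved the share of other members below 0 from 46.5% to 16.3%, while median centring moved it to 65.1%. With the mean over probe sets, which counts the dim probe set of Psmb8, 0 genes were at least 1.5-fold lower, in place of 1, and Psmb8 came to -0.58. Without Psmb8 the immunoproteasome median was 0.18 and its contrast with the other members 0.17, and over the 3 catalytic subunits alone the median was -0.50. At 1.3-fold, 1 higher and 4 lower genes became 4 and 1 with spike-in scaling. The number of regulators past 1.5-fold was 1, but 2 with median centring or a pseudocount of 1 and 0 with spike-in scaling, a pseudocount of 64 or the 75th percentile filter. The share of all genes past 1.5-fold changed too, from 4.8% to 4.95% with median centring and 6.25% with a pseudocount of 1. It was 6.82% with spike-in scaling, 3.05% with a pseudocount of 64 and 4.66% with the 75th percentile filter. The MHC class I list had 1 gene past 1.5-fold, in place of 0, with spike-in scaling or a pseudocount of 1 (Tapbpl, 0.65 and 0.61), and the partner list 1 with spike-in scaling (Usp14, 0.62). Over 10 alternatives Psmb8 ran from -0.81 to -0.58, Psmb9 from -0.55 to -0.35 and Psmb10 from 0.40 to 0.60. Psmb9 and Psmb10 have 1 probe set each, so only the scaling and pseudocount alternatives could change their values. Psmf1 turned to -0.19 with unsuffixed probe sets preferred, and Psmg3 to -0.03 with the mean over probe sets. Psmb1 turned from -0.09 to 0.18 with unsuffixed probe sets preferred and to 0.11 with the mean. With the mean Psmd13 went from -0.35 to -0.02, Psme3 from -0.50 to -0.19 and Psme4 from -0.32 to -0.13. Of the further alternative values, for single genes, pathway lists, probe set agreement and 1.3-fold counts, 26 moved and 717 did not.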
